A study of Homo sapiens with 12 samples.

Results

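Arginine and lysine, amino acids with a positively charged side chain, were examined at the penultimate codon before a premature stop codon, in reporter mRNAs that are degraded by nonsense-mediated mRNA decay (NMD). The members are library variants with a stop codon at bases 7 to 9 of a window of 10 bases, in which the first 6 and the last could be any base, a sense codon at bases 4 to 6 and a codon for arginine or lysine at bases 1 to 3. They were chosen from the mean response per penultimate amino acid, in which arginine was the lowest of 20 in the EJC-independent reporter and lysine the lowest of 20 in the EJC-enhanced reporter. Of 5856 possible members, 3113 were listed among the 41955 variants of the EJC-independent reporter, and 3817 among the 51306 of the EJC-enhanced reporter. A mean normalized count of 10 or more was reached by 3092 and 3803 of them, and those are described here. Since the response chose the members, no comparison of responses below is a test: differences are given with their spread, and no call is made on them.

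The cells were HEK293T, an established human embryonic kidney line. Cre-Lox recombination had put each library at 1 place in the genome, for which the labels give no coordinates. Cells with each reporter were treated with SMG1i, an inhibitor of the kinase SMG1, at 0.5 µM for 24 hours, or with DMSO as vehicle for the same time. There were 3 libraries for each treatment and reporter, 12 in all, and the labels do not say whether they came from separate cultures. The response is the log2 ratio of RNA under SMG1i to RNA under DMSO, so that a value of 1 is a doubling and a larger value is read as more decay when NMD is active. The deposited tables do not say which treatment is on top of the ratio: the sign was set so that stop codon variants are positive, and all signs would turn with the other choice.

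NMD removes mRNAs on which translation ends early. SMG1 phosphorylates the helicase UPF1, a step that commits such an mRNA to decay. The exon junction complex (EJC) is left on the mRNA by splicing, and one that lies downstream of a stop codon promotes decay. The reporters are named after this complex. When a ribosome reaches a stop codon, the stop codon is in its A site, the last sense codon and its tRNA with the finished peptide are in the P site, and the penultimate codon is in the E site. The penultimate amino acid is then the second residue from the end of the peptide, in the upper part of the exit tunnel, a passage lined largely by negatively charged RNA. Release of the peptide takes place when the factor eRF1 reads the stop codon and the bond to the P-site tRNA is cut.

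Arginine has 6 codons, 4 in the CGN box (N is any base) together with AGA and AGG, and lysine has AAA and AAG. AGA and AAA differ only in the middle base, and so do AGG and AAG. Of the 31 contexts in which the EJC-independent reporter lists all 8 codons with a stop codon and with TGG, the one whose rarest variant has the most counts is shown, to make the window plain. Here the last codon is CCC (proline), the stop codon is TGA and the base after it is C, and the capitals mark the penultimate codon.

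arginine CGT: CGTccctgac
arginine CGC: CGCccctgac
arginine CGA: CGAccctgac
arginine CGG: CGGccctgac
arginine AGA: AGAccctgac
arginine AGG: AGGccctgac
lysine AAA: AAAccctgac
lysine AAG: AAGccctgac

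The authors' deposited table gives these 8 variants responses from 1.57 to 2.05, with mean normalized counts from 368.1 to 9708. In that table CGC, the most abundant, responded by 1.74 with a standard error of 0.05, and AAA, the least abundant, by 1.57 with a standard error of 0.28. The 53 other penultimate codons in this context averaged 1.82 ± 0.19 (SD), and 5 of the 8 lay below that mean. With TGG, the tryptophan codon, in place of the stop codon, the same 8 contexts gave -0.24 to 0.29 in the authors' deposited table. The 8 codons thus overlapped with the other codons in a proline context, and the stop codon and TGG arms did not overlap.

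A different picture came from a context with threonine as the last codon (ACC, stop codon TGA, then C). It is shown because arginine lay furthest below the other codons before tryptophan and threonine in the EJC-independent reporter, and it was picked after values were seen, as the threonine context with the most arginine codons, then the most lysine codons, then the highest minimum count.

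arginine CGT: CGTacctgac
arginine CGC: CGCacctgac
arginine CGA: CGAacctgac
arginine CGG: CGGacctgac
arginine AGA: AGAacctgac
arginine AGG: AGGacctgac
lysine AAA: AAAacctgac
lysine AAG: AAGacctgac

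For the EJC-independent reporter, the authors' deposited table lists AGG at 1.75 (standard error 0.15), CGC at 1.63 (0.16), CGT at 1.74 (0.24) and CGG at 2.01 (0.24). The 2 arginine codons with fewer than 100 counts were less precise, AGA at 1.65 (0.79) and CGA at 2.72 (0.59). The lysine codons were at 3.23 (0.45) for AAA and 2.83 (0.20) for AAG in the same deposited table. The 52 other codons of this context averaged 2.27 ± 0.35 (SD). Arginine, apart from CGA, was below the mean of the other codons and both lysine codons were above it. The TGG variants of the same windows were between -0.18 and 0.11 for the 5 arginine codons that have one and at 0.09 (0.31) for AAG, but at 0.77 (0.27) for AAA, in the authors' deposited table, beside -0.08 ± 0.31 (SD) for the other codons. With the TGG variant subtracted, AAA was at 2.46 and AAG at 2.74, against 2.35 ± 0.45 (SD) over the 52 other codons, so both lysine codons then lay within 1 SD of that mean. The arginine codons with a TGG variant were then at 1.52 (CGC), 1.65 (AGG), 1.72 (CGT), 2.19 (CGG) and 2.70 (CGA). In the EJC-enhanced reporter the authors' deposited table has the 6 arginine variants between 1.98 and 2.28, AAA at 3.49 (0.57) and AAG at 2.04 (0.65), beside 2.43 ± 0.43 (SD) over the 53 other codons. The AGG variant has no adjusted p in the authors' deposited table for this reporter, and its standard error there is 1.60.

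Most members had more RNA under SMG1i, a direction that follows from the sign chosen for stop codon variants. For the EJC-independent reporter, the authors' deposited table has 2482 of 3090 members higher under SMG1i than under DMSO at an adjusted p under 0.05 (80.3%), against 84.9% of all stop variants, and 0 lower (0%), against 0.0104%. The EJC-enhanced counts in the authors' deposited table are 3072 of 3781 members higher (81.2%), against 86.1% of all stop variants, and 0 lower (0%), against 0.00291%. By amino acid the share called higher was 81.2% for arginine and 74.9% for lysine in the first of these deposited tables, and 84.4% and 65.1% in the second. Depth moved with these shares: the median mean normalized count was 217.9 for arginine, 102.0 for lysine and 252.9 for other codons in the EJC-independent reporter, and 129.6, 54.8 and 147.6 in the EJC-enhanced reporter. Where the mean count reached 100, the authors' deposited tables call 97.7% of arginine and 98.2% of lysine members higher, beside 98.1% of all stop variants, for the EJC-independent reporter. The same shares for the EJC-enhanced reporter are 96.5%, 89.8% (132 of 147, 95% Wilson interval 83.8% to 93.7%) and 96% in the authors' deposited table. Lysine was chosen for its low response in this reporter, so its lower share is not a separate finding. The interval covers counting error over variants of the same libraries and is not a test. A mean count of 100 was reached by 23.8% of lysine and 58.1% of arginine members in this reporter. Depth above that limit was not matched.

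The TGG contexts with arginine or lysine showed no such shift. The authors' deposited table has 42 of 1106 higher and 43 lower for the EJC-independent reporter (3.8% and 3.89%), close to the 4.09% and 4.03% over all TGG variants. For the EJC-enhanced reporter the authors' deposited table has 38 of 1526 higher and 26 lower (2.49% and 1.7%), beside 2.76% and 1.38% over all TGG variants. Members paired with the TGG variant of the same flanking bases exceeded it by 1.60 for arginine (2100 pairs, SD 0.75), 1.72 for lysine (255 pairs, SD 1.00) and 1.74 for other codons (21720 pairs, SD 0.75) in the EJC-independent reporter. The EJC-enhanced reporter gave 2.27 for arginine (2938 pairs, SD 0.95), 2.18 for lysine (481 pairs, SD 1.20) and 2.26 for other codons (29240 pairs, SD 0.91). At least 94.6% of the pairs of each amino acid had the stop variant above its TGG variant in either reporter.

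Member codons differed greatly in how much of the library they held, a property that the choice of members did not use. The CGN codons had between 63.0% and 88.0% of their 732 possible stop variants listed in the EJC-independent reporter, and between 73.6% and 95.6% in the EJC-enhanced reporter. The purine codons AGA and AGG (arginine) with AAA and AAG (lysine) had 29.2% to 33.6% and 41.0% to 47.5%. The other 4 sense codons made only of A and G, which code for glutamate and glycine, were also thinly covered, at 30.3% to 41.4% and 43.7% to 58.6%. Median counts followed, at 84.2 to 122.7 for the 4 purine member codons against 156.2 to 431.6 for CGN in the EJC-independent reporter. The median standard error of a single member was 0.51 for lysine and 0.35 for arginine in that reporter, and 0.79 and 0.57 in the EJC-enhanced reporter.

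All 6 arginine codons were low in the EJC-independent reporter. Their mean responses were 1.54 for AGA, 1.56 for CGG and for CGC, 1.57 for CGT, 1.59 for CGA and 1.63 for AGG, and the lysine codons had 1.69 (AAA) and 1.70 (AAG). To compare codons in equal surroundings, each difference was taken within the same last codon, stop codon and following base, averaged per last codon and then over last codons, against the 53 sense codons that code for neither amino acid. Arginine stood at 1.58 and the other codons at 1.74 in such contexts, a difference of -0.16 or 0.895-fold (95% interval -0.19 to -0.12 over 61 last codons, SD 0.14), and it was lower before 55 of the 61 last codons. Each arginine codon taken alone had a difference between -0.24 (AGA) and -0.13 (CGA), with an interval over last codons below 0. These are the responses by which arginine was chosen, so the intervals describe spread and test nothing. Of the 8 codons with the lowest values among all 61, 6 were those of arginine, and the other two were CAG for glutamine and CAC for histidine.

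Lysine lay close to the rest in this reporter. It averaged 1.67 against 1.75 for the other codons in 347 matched contexts, a difference of -0.08 (95% interval -0.18 to 0.02, SD 0.40) that was below 0 for 35 of 61 last codons. AAA gave -0.04 (interval -0.18 to 0.10) and AAG -0.02 (interval -0.16 to 0.12). These rest on 59 and 58 last codons and on their own contexts, so they need not bracket the pooled value. Under other settings the pooled lysine value ran from -0.13 to 0.04. It was -0.02 with inverse variance weights and -0.04 as the median over contexts. Arginine minus lysine was -0.11 in 346 shared contexts (interval -0.22 to -0.0026), with means of 1.56 and 1.67. The SD over last codons was 0.44 for arginine minus lysine, larger than the difference itself. The sign also moved with depth: arginine minus lysine was 0.03 at mean counts of 10 to 100 (interval -0.18 to 0.25), -0.17 at 100 to 1000 (interval -0.26 to -0.07) and -0.10 at 1000 or more (12 contexts). Over the variants that also have a matched TGG variant, a restriction chosen after seeing the data, it was 0.0050.

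The EJC-enhanced reporter had the amino acids in the opposite order. This order follows from the choice of members, the lowest amino acid of each reporter, and is not a separate finding. Lysine was low, at 2.10 against 2.29 for the other codons in 439 matched contexts, which is a difference of -0.20 or 0.873-fold (95% interval -0.31 to -0.08, SD 0.46), and it was below 0 for 40 of 59 last codons. With the matched TGG variant subtracted from each variant, this difference was -0.054, and over the same variants without the subtraction it was -0.089. Arginine was at 2.26 against 2.29, a difference of -0.03 (interval -0.07 to 0.0028, SD 0.14), below 0 for 35 of 61. Arginine minus lysine was 0.17 (interval 0.05 to 0.29, SD 0.48) over 59 last codons, with means of 2.26 and 2.09. With AGA as the only arginine codon and AAG as the only lysine codon it was 0.37. The arginine codons ranged from 2.23 (AGG) to 2.35 (CGT) in mean response and AAA and AAG had 2.17 and 2.08. AAG had the lowest matched difference of all 61 codons, at -0.23 (interval -0.38 to -0.08), and AAA the fifth lowest, at -0.10 (interval -0.27 to 0.08). Between them lay GGG (glycine) at -0.17 (interval -0.29 to -0.04), the arginine codon AGG at -0.12 (interval -0.24 to 0.0089) and GGT (glycine) at -0.10 (interval -0.20 to 0.0019). The reporters were measured in separate libraries and scaled separately, so the 2 sets of differences stand side by side, and their difference was not tested.

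The same codons were compared without a stop codon. In TGG controls arginine minus the other codons was -0.03 (95% interval -0.08 to 0.02) in the EJC-independent and -0.01 (interval -0.05 to 0.03) in the EJC-enhanced reporter. Lysine in TGG controls was at -0.10 (interval -0.25 to 0.06) and 0.08 (interval -0.10 to 0.27), with SDs over last codons of 0.59 and 0.73. The lysine value in TGG of the EJC-independent reporter was farther from 0 than its stop codon value of -0.08. Of the 8 member codons, AGA stood lowest in the TGG arm of the EJC-independent reporter, at -0.18 (interval -0.35 to -0.0096), beside -0.24 with stop codons. The TGG values of the other member codons were -0.0047 for CGT, -0.02 for CGC, -0.04 for CGA, -0.02 for AGG, -0.08 for AAA and -0.08 for AAG, each with an interval that includes 0. CGG, at 0.01 in TGG and -0.19 with stop codons, was the only one of the 8 with a TGG value above 0 in this reporter.

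Synonymous codons of arginine were set against each other next. CGN minus the AGA and AGG pair was 0.06 (95% interval -0.05 to 0.17, 335 contexts) in the EJC-independent and 0.11 (interval -0.05 to 0.26, 458 contexts) in the EJC-enhanced reporter. CGA minus AGA, which differ only in the first base, gave 0.14 (interval -0.05 to 0.33) and 0.12 (interval -0.10 to 0.34). CGG minus AGG gave -0.11 (interval -0.28 to 0.06) and 0.18 (interval -0.0035 to 0.36). Lysine AAG minus AAA was -0.11 (interval -0.36 to 0.13, 99 contexts) and -0.04 (interval -0.27 to 0.19, 191 contexts). All of these intervals include 0 and are wide, so these data do not show that the codons of an amino acid act alike.

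Changing only the middle base from A to G turns lysine into arginine. AGA minus AAA was -0.25 in the EJC-independent reporter (means 1.51 and 1.76, 95% interval -0.46 to -0.04), and it was below 0 for 27 of 35 last codons. By stop codon, AGA minus AAA was -0.50 before TAA (interval -0.80 to -0.20), -0.11 before TAG (interval -0.38 to 0.15) and -0.10 before TGA (interval -0.46 to 0.25) in this reporter. The median over contexts was -0.15, and with A after the stop codon the difference was 0.11 (interval -0.40 to 0.63). AGG minus AAG was -0.11 (means 1.62 and 1.74, interval -0.35 to 0.12), below 0 for 26 of 41. Over the variants with a matched TGG variant, AGG minus AAG was 0.43 with TGG subtracted and 0.20 without the subtraction. The EJC-enhanced reporter gave 0.19 for AGA minus AAA (means 2.44 and 2.24, interval -0.08 to 0.46; -0.065 with TGG subtracted) and 0.13 for AGG minus AAG (means 2.21 and 2.08, interval -0.18 to 0.44). Over all variants used, with no subtraction, both pairs were below 0 in the EJC-independent and above 0 in the EJC-enhanced reporter. The choice of members favours this order. At a mean count of 50 or more, AGG minus AAG was 0.59 in the EJC-enhanced reporter.

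Codons 1 base away from a member that code for glutamine, histidine, asparagine, glutamate, serine or threonine help to place these values. In the EJC-independent reporter glutamine stood at -0.18 for CAG and -0.09 for CAA, and histidine, which is also basic, at -0.14 for CAC and -0.07 for CAT. Asparagine lay near 0, at 0.0013 for AAC and -0.02 for AAT, and glutamate at -0.06 for GAA and 0.08 for GAG. Serine was at 0.03 for AGT and -0.01 for AGC, and threonine at -0.03 for ACA and -0.04 for ACG. CAG and CAC were near the arginine codons CGG (-0.19) and CGC (-0.17), from which they differ only in the middle base. Neighbours that code for other amino acids ran from -0.13 (TGT, cysteine), near CGT at -0.13, to 0.18 (ATA, isoleucine). The 12 neighbours listed by codon lay between -0.07 (GAA) and 0.05 (CAC) in the EJC-enhanced reporter, above the lysine codon AAG at -0.23. Those that code for other amino acids ran from -0.17 (GGG) to 0.18 (GGA), both glycine codons.

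Split by stop codon, arginine was below the other codons in each set of the EJC-independent reporter. The differences were -0.17 before TAA, -0.12 before TAG and -0.19 before TGA, with 95% intervals of -0.23 to -0.11, -0.17 to -0.07 and -0.26 to -0.13. Mean responses of arginine members were 1.54 before TAA (919 members), 1.52 before TAG (876) and 1.65 before TGA (851), where the other codons had 1.70, 1.64 and 1.86. TGA, a stop codon known for its leakiness to readthrough, was thus the highest for arginine as well as for the other codons. AGG was the lowest arginine codon relative to the other codons before TGA, at -0.40 ± 0.09 (SE over last codons), against -0.03 ± 0.09 before TAA and -0.04 ± 0.08 before TAG. Lysine members had 1.69 before TAA (168), 1.69 before TAG (151) and 1.71 before TGA (127), which lie within their standard errors of each other, and differences of -0.08, 0.04 and -0.13 with intervals that all include 0.

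EJC-enhanced lysine members were below the other codons before each stop codon. The differences were -0.28 before TAA (95% interval -0.46 to -0.10), -0.16 before TAG (interval -0.35 to 0.03) and -0.21 before TGA (interval -0.41 to 0.0022). Mean responses were 2.09, 2.14 and 2.14 for lysine, from 210, 209 and 211 members, against 2.31, 2.26 and 2.31 for the other codons. The lowest codon and stop codon combination was AAG before TAA, at 1.99 ± 0.09 (SE, 107 members). Arginine had 2.28 before each of the 3 stop codons to 2 decimals, with differences of -0.03, -0.0003 and -0.06.

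The arginine differences were alike with each base after the stop codon. In the EJC-independent reporter they were -0.15 with A, -0.16 with C, -0.17 with G and -0.15 with T. Each 95% interval, which describes spread over last codons only, lay below 0. Mean responses of arginine members were 1.63 with A, 1.54 with C, 1.56 with G and 1.57 with T. Lysine was less even: 0.06 with A, -0.09 with C, -0.23 with G and -0.11 with T, with intervals that all reach 0 or above and with 63 to 128 contexts each. In the EJC-enhanced reporter lysine stood at -0.31 with A (interval -0.55 to -0.07), -0.18 with C (interval -0.40 to 0.04), -0.26 with G (interval -0.47 to -0.04) and -0.03 with T (interval -0.24 to 0.17). Arginine in that reporter lay between -0.07 with G and 0.01 with C.

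How far arginine lay below the rest in the EJC-independent reporter varied with the last amino acid, which is on the P-site tRNA. Arginine was lower with all 20 last amino acids, and the difference ran from -0.44 to -0.01. The 4 largest differences were with tryptophan (-0.44 ± 0.12, SE over 11 contexts), threonine (-0.38 ± 0.04, 48 contexts), methionine (-0.26 ± 0.18, 11 contexts) and serine (-0.22 ± 0.03, 72 contexts). The 4 smallest were with glutamate (-0.0092 ± 0.13, 19 contexts), phenylalanine (-0.01 ± 0.05, 24 contexts), glycine (-0.06 ± 0.09, 44 contexts) and tyrosine (-0.06 ± 0.07, 24 contexts). Over the 61 last codons the means of arginine members and of other codons correlated with Pearson's r 0.76 and Spearman's rho 0.75, where both sets come from the same libraries. The EJC-enhanced reporter had r 0.14 and rho -0.02 for arginine over 61 last codons, where the means of the other codons spread less (SD 0.05, against 0.19 in the EJC-independent reporter).

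Threonine and glycine, the last amino acids with the highest response in this reporter, had unlike arginine differences, which were not tested against each other. Arginine followed by threonine had a mean response of 1.73 ± 0.52 (SD, 192 members), against 2.12 for other codons followed by threonine. Arginine followed by glycine had 2.05 ± 0.72 (SD, 106 members), against 2.14. All 4 threonine codons showed the lower value, with differences of -0.51 for ACT (12 of 12 contexts below 0), -0.30 for ACC (11 of 12), -0.29 for ACA (9 of 12) and -0.42 for ACG (11 of 12). By stop codon the arginine and threonine pair stood at -0.45 before TAA, -0.30 before TAG and -0.40 before TGA, with SEs of 0.08, 0.08 and 0.06.

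Each arginine codon was low before threonine, from -0.33 ± 0.10 for CGA (SE, 33 members) to -0.63 ± 0.15 for AGA (17 members). Lysine was not: AAA had -0.10 ± 0.16 (11 members) and AAG 0.22 ± 0.20 (15 members). Of the 20 penultimate amino acids before threonine, arginine was the lowest, with histidine next at -0.17 ± 0.06 and valine highest at 0.34 ± 0.08. Where the mean count reached 100, the arginine value before threonine was -0.34, and without threonine contexts the arginine difference as a whole was -0.14 (95% interval -0.18 to -0.11, 57 last codons). TGG controls with arginine and threonine averaged -0.10 ± 0.39 (SD, 66 variants), against -0.05 ± 0.50 for other codons with threonine (669 variants). The EJC-enhanced reporter had the arginine and threonine pair at -0.08 ± 0.07 (SE, 48 contexts), with means of 2.27 and 2.34. This pair was singled out after its values were seen.

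Arginine before tryptophan rested on 36 members with 1 last codon, and the codons were uneven. Arginine was not the lowest penultimate amino acid there. Aspartate lay lower, at -0.55 ± 0.27 (SE, 8 contexts), and glutamine came after arginine at -0.36 ± 0.11 (6 contexts). Among the arginine codons the means differed. CGA had 0.90 ± 0.43 (SD, 8 members) and CGT 1.64 ± 0.34 (7 members), against 1.72 for other codons before tryptophan. The TGG controls with arginine before tryptophan averaged 0.26 ± 0.61 (SD, 10 variants), against -0.09 ± 0.83 for other codons (116 variants). In the EJC-enhanced reporter arginine before tryptophan was at 0.15 ± 0.09 (SE, 12 contexts), with means of 2.35 and 2.22.

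Lysine varied more with the last amino acid, with fewer members behind each value. In the EJC-independent reporter it was below the other codons with 12 of 20 last amino acids. The 4 lowest were aspartate (-0.40 ± 0.41, 10 contexts), cysteine (-0.33 ± 0.16, 11 contexts), arginine (-0.27 ± 0.15, 23 contexts) and serine (-0.27 ± 0.12, 42 contexts). The 4 highest were lysine (0.61 ± 0.22, 4 contexts), glutamine (0.55 ± 0.20, 9 contexts), histidine (0.19 ± 0.21, 18 contexts) and methionine (0.15 ± 0.35, 4 contexts). The means of lysine members and of other codons had r 0.35 and rho 0.36 over 61 last codons, and r -0.22 and rho -0.22 over 59 in the EJC-enhanced reporter.

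For the EJC-enhanced reporter lysine was lower with 16 of 20 last amino acids. The 4 lowest were glutamate (-0.98 ± 0.53, 8 contexts), tyrosine (-0.72 ± 0.31, 17 contexts), asparagine (-0.49 ± 0.35, 13 contexts) and alanine (-0.43 ± 0.17, 32 contexts). Phenylalanine followed at -0.41 ± 0.13 (22 contexts), where lysine members averaged 1.84 and the other codons 2.27. The 4 highest were histidine (0.29 ± 0.18, 19 contexts), cysteine (0.03 ± 0.27, 14 contexts), methionine (0.03 ± 0.21, 3 contexts) and proline (0.0011 ± 0.11, 42 contexts). Arginine in this reporter was lower with 13 of 20, the lowest being glutamate (-0.35 ± 0.12), methionine (-0.31 ± 0.19), glycine (-0.15 ± 0.08) and asparagine (-0.12 ± 0.11), and the highest cysteine (0.15 ± 0.09), tryptophan, tyrosine (0.06 ± 0.06) and leucine (0.04 ± 0.04).

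Pairs of basic amino acids just before the stop codon were described next. Arginine followed by arginine had 1.68 ± 0.60 (SD, 222 members) in the EJC-independent and 2.27 ± 0.85 (285 members) in the EJC-enhanced reporter, against 1.77 and 2.25 for other codons followed by arginine. Arginine followed by lysine had 1.51 ± 0.61 (41 members) and 2.33 ± 0.99 (53 members), against 1.71 and 2.24 for other codons followed by lysine. Lysine followed by arginine had 1.67 ± 0.75 (27 members) and 2.06 ± 0.93 (43 members). Lysine followed by lysine was rare, with 5 of 48 possible members in either reporter, and they ranged from 1.34 to 2.60 and from 0.60 to 4.23. Uninterrupted runs of A at both codons, which are known to let ribosomes slip, were present in 1 member of the EJC-independent reporter, at 1.34, and 2 of the EJC-enhanced reporter, at 0.60 and 2.02, as the authors' deposited tables list them. These are too few to describe such runs.

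The same codons were also compared as last codon. Arginine as last codon of the EJC-independent reporter was at 0.06 relative to the other codons (95% interval 0.02 to 0.10), against -0.16 as penultimate codon. CGC was at 0.13 as last and -0.17 as penultimate codon, CGT at 0.12 and -0.13, while AGG was low in both places, at -0.18 and -0.17. Lysine was at -0.05 as last and -0.08 as penultimate codon. The EJC-enhanced reporter gave -0.04 as last and -0.03 as penultimate codon for arginine, and -0.12 and -0.20 for lysine. The difference between places was not tested.

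The arginine difference of the EJC-independent reporter was below 0 in each band of depth. It was -0.14 among variants with a mean count of 10 to 100, -0.18 at 100 to 1000 and -0.18 at 1000 or more, with the last based on 54 last codons. Lysine was at -0.09, 0.0018 and 0.0025 in the same bands, the last from 18 contexts. In the EJC-enhanced reporter lysine was at -0.15 (95% interval -0.27 to -0.03) at 10 to 100 and at -0.15 (interval -0.40 to 0.11) at 100 to 1000, and no lysine member could be matched at 1000 or more.

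Single members scattered widely, by little more than their deposited standard errors. The SD over members was 0.60 for arginine and 0.76 for lysine in the EJC-independent reporter, beside root mean square standard errors of 0.54 and 0.68. It was 0.78 and 0.98 in the EJC-enhanced reporter, beside 0.69 and 0.85. Members with a mean count that reached 100 in both reporters, 1514 in number, had Pearson's r 0.01 between the 2 responses, beside 0.0028 over 15040 variants with other penultimate codons. Of the members, 1344 were higher in the EJC-enhanced reporter (88.8%), beside 84.4% of those other variants, though each table has its own scaling.

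The members at either end are listed next, among those with at least 100 counts and a deposited adjusted p under 0.05. Members at the low end that did not pass that threshold are left out by it, so the low lists partly show where it cuts. Over all members used, the lowest response was -1.54 in the EJC-independent and -2.41 in the EJC-enhanced reporter. Capitals again mark the penultimate codon. The lowest and the highest of the EJC-independent reporter were:

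lowest 1: CGAatatgac
lowest 2: CGGatatagc
lowest 3: CGCgtctaaa
lowest 4: CGTtactagt
highest 1: CGAacatgac
highest 2: AAAggttaaa
highest 3: AAAacctgac
highest 4: AAAcgctgac

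The authors' deposited table gives the 4 lowest responses of 0.56 (standard error 0.25), 0.63 (0.28), 0.67 (0.11) and 0.68 (0.22), with isoleucine, isoleucine, valine and tyrosine as last amino acid. All 4 have arginine, as do 88.7% of the 1969 members that meet the same limits. Their own TGG variants were at 1.21 (0.89), -0.10 (0.92), 0.32 (0.21) and -0.02 (0.26) in the same deposited table, so the lowest member lay below its TGG variant, which has a mean count of 35.0. The 4 highest had 3.48 (0.50), 3.33 (0.47), 3.23 (0.45) and 3.21 (0.50) in the authors' deposited table, 3 of them with the lysine codon AAA, and threonine, glycine, threonine and arginine as last amino acid. All 4 had mean counts between 143.4 and 153.8, near the minimum of 100.

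The corresponding members of the EJC-enhanced reporter were:

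lowest 1: CGGgcctgag
lowest 2: CGTttataac
lowest 3: AAAttttgac
lowest 4: AAGcggtaac
highest 1: CGGctatgaa
highest 2: AGActttagt
highest 3: AAGccttgac
highest 4: CGTgtctaaa

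They responded by 0.88 (standard error 0.39), 0.92 (0.42), 1.01 (0.46) and 1.10 (0.49) at the low end of the authors' deposited table. The TGG variants of these low members were at -0.22 (0.28), -0.35 (0.30), -1.55 (0.98) and -0.41 (0.76) in the same deposited table. Those of the lysine members had mean counts of only 56.5 and 44.6. At the high end that deposited table has 6.04 (1.14), 5.31 (1.61), 4.82 (0.64) and 4.81 (0.61). CGT followed by a valine codon and TAA then A was among the 4 highest here, and the same window with CGC was among the 4 lowest of the EJC-independent reporter. Both ends mix arginine and lysine codons, where arginine makes up 93.0% of the 1898 members within these limits.

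Windows that hold letters of a splice donor across the 2 codons were looked at because splicing places the EJC. Only AAG (lysine) followed by GTA or GTG (valine) can hold AGGTA or AGGTG at bases 2 to 6, read on the sense strand. In the EJC-enhanced reporter 3 members held AGGTA, with responses from -0.26 to 2.05 and a median count of 27.0, and 2 held AGGTG, at 2.68 and 2.82, against 2.31 ± 0.88 (SD) over 219 members whose last codon begins with GT and that hold neither. The EJC-independent reporter had 2 with AGGTA, at 1.53 and 1.92, and 1 with AGGTG, at 1.37, against 1.58 ± 0.56 (SD) over 178. These are too few for a comparison.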

How the data were processed

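RNA of 12 reporter libraries in HEK293T cells was sequenced, 3 per treatment and reporter. The authors deposited 1 comparison of the treatments per variant for each reporter, with no value per library. Per the file headers each row has a mean normalized count over libraries (signal), a fold change and its error in log2, a Wald score, and a raw and an adjusted p-value. The submitters' processing notes name DESeq and DESeq2; their versions, the read processing and the assignment of variants are not given there, and the depth per library is unknown. The deposited tables do not state the numerator. As deposited, stop codon variants are negative, and the log2 fold change was turned here so that a positive response means more RNA under SMG1i; with the other numerator each sign would turn.

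Variants were read from the 10 bases of the window (Python 3.11.15, pandas 2.3.3, numpy 2.4.6, scipy 1.17.1). Those whose mean normalized count reached 10 were kept. Responses were compared within contexts of equal last codon, stop codon and following base, averaged per last codon and then over last codons; 95% intervals are 1.96 standard errors over last codons, and describe sequences in the same libraries, not replicate cultures. Where 1 last amino acid is described, the SE runs over contexts. In the comparison of all 20 last amino acids the value is averaged per last codon first, so value and SE weight contexts differently. The matching was tried on simulated responses in which penultimate and last codon effects add up, with noise set by the deposited standard errors. Penultimate effects that change with the last codon, stop codon or depth were not simulated. Calls are the deposited adjusted p at 0.05; missing adjusted p-values (20 and 207 variants of the tables) were left out of shares. Wilson intervals cover counting error only. Members and lists were chosen with earlier results of these data known. Named were the 8 member codons, each stop codon and following base, the 4 highest and 4 lowest last amino acids, pairs of basic amino acids, neighbouring codons, donor-like letters and the 4 highest and 4 lowest single members.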

Additional observations from a re-analysis of the deposited data

How the results depend on the processing

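Of 180 values recomputed under other settings for 20 results, 152 kept their sign and moved by less than the 95% interval over last codons (Wilson interval for shares); the others follow, and the cause was not tested. In the EJC-independent reporter a minimum mean count of 50 gave 92.3% of members called and 0.0039 for lysine in TGG controls. TAG alone gave 78.0% called, -0.12 for arginine, 0.041 for lysine, 0.013 for AGG minus AAG and -0.012 for CGN minus AGA and AGG. TAA alone gave -0.50 for AGA minus AAA, -0.050 for CGN minus AGA and AGG, and 0.016 for AAG minus AAA. Subtracting the matched TGG variant gave -0.11 for arginine and 0.43 for AGG minus AAG. The same variants without subtraction, an alternative chosen after seeing the data, gave 0.0050 for arginine minus lysine and 0.20 for AGG minus AAG. Without matching, CGN minus AGA and AGG was -0.021 and AAG minus AAA 0.015.

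For the EJC-enhanced reporter a minimum of 50 gave 91.4% called, 0.59 for AGG minus AAG, -0.35 for AAG minus AAA and -0.0055 for lysine in TGG controls. Medians over contexts gave 0.0026 for arginine and -0.080 for lysine in TGG controls, which without matching was -0.023. Subtracting TGG gave -0.054 for lysine and -0.065 for AGA minus AAA. AGA and AAG only gave 0.37 for arginine minus lysine, and AAG minus AAA was 0.018 with TAG alone and 0.0097 with TGA alone. Arginine in the EJC-independent reporter stayed between -0.19 and -0.11 over its 11 alternatives, and lysine in the EJC-enhanced reporter between -0.28 and -0.05. No paired analysis was possible because the deposited tables hold no value per library; for the same reason no replicate could be left out. Lysine has lower counts and wider intervals than arginine; whether depth accounts for its lower share of calls was not tested.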
